A study of Mus musculus with 4 samples.

Results

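Mitochondrial ribosomal protein genes are the nuclear genes whose products, made in the cytosol and imported, form the protein part of the mitochondrial ribosome. They were taken as every gene whose symbol is Mrpl or Mrps followed by a number and, in some, a letter, which gave 78 of the 50600 genes counted. The data were RNA-seq libraries of mouse regulatory T cells, the CD4 T cells that restrain immune responses and carry the transcription factor Foxp3. There was 1 group of 4 libraries, labelled biological replicates 1 to 4, from primary cells of strain C57BL/6NJ with sex not collected and age unknown. The assay was called total RNA-seq although the library protocol linked was for poly(A)+ RNA, and a CD4 T cell differentiation protocol was linked too. Recorded file names include activated and 72h, and no genotype change or drug was labelled. The same donor identifier was given for all 4 libraries, and nothing stated that they came from separate animals, so p-values measure only the spread between these libraries. With no second group, genes were compared with each other within libraries, and each gene was compared between libraries.

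The mitochondrial ribosome reads the few messenger RNAs made inside the organelle, all of which encode membrane proteins of the respiratory chain and ATP synthase. Its large subunit joins amino acids and holds the exit tunnel, and its small subunit binds the messenger RNA and checks the codon. Some of its proteins have counterparts in the bacterial ribosome, and others exist only in mitochondria. In T cells, growth after activation is known to be accompanied by an increase in mitochondrial mass and in mitochondrial translation.

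The libraries held 51460018 to 121477975 counts on genes, a ratio of 2.36. The cells carried the markers of their label: Foxp3 stood at 448 ± 27.8 TPM (SD, n = 4), and 5 of 5 regulatory T cell markers reached 1 TPM in every library, as did 48.9% of protein-coding genes. Their summed level was 3744 to 4277 TPM, with Il2ra the largest part at 2168 ± 242 TPM and Ikzf2 the smallest at 16.4 ± 3.61 TPM. TPM is the count divided by the merged exon length of the gene and brought to a common total. Summed markers were 0.346 to 1.20 TPM for B cells, 1.77 to 3.38 TPM for macrophages and monocytes, with Lyz2 at 0 counts in every library, 0.112 to 0.184 TPM for natural killer cells, with Ncr1 at 0 counts, 0 to 0.954 TPM for erythroid cells and 8.70 to 13.4 TPM for CD8 T cells. Most of the macrophage sum was Adgre1, at 2.55 ± 0.86 TPM. Most of the CD8 sum was Cd8b1, at 11.5 ± 2.16 TPM, with Cd8a at 0.243 TPM. The X-inactivation transcript Xist was at 173 and 199 TPM in replicates 1 and 2, and at 0.592 and 0.758 TPM in replicates 3 and 4. The Y-linked gene Eif2s3y went the other way, at 0.0874 and 0.133 TPM in replicates 1 and 2 and at 46.7 and 62.7 TPM in replicates 3 and 4. Although the labels gave the same donor identifier, the 4 libraries thus did not share 1 animal, and how many animals stood behind n = 4 is not given. In bulk RNA, fewer cells of a type and less RNA per cell cannot be told apart.

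Promoter sequences are given first, because nuclear genes for mitochondrial proteins are classically described as targets of the factors Nrf1, of ETS proteins such as Gabpa, and of Yy1. RefSeq promoters of build GRCm38.p6, which has the coordinates of mm10, run from 250 bases before to 50 bases after the RefSeq start of a gene, and 69 of the 78 genes matched the table. Shown are the parts of these windows that lie upstream of the gene as the count files annotate it, for the 2 members of highest level, Mrps16 and Mrps6, and for the highest and the lowest member with an Nrf1 match, Mrpl12 and Mrpl17, which were chosen after the search. The window of Mrpl23, the lowest member above 1 TPM, lies within its annotated gene and is not shown. Capitals mark the letters of Nrf1 (GCGC, any 2 bases, GCGC) and of the ETS core (CCGGAAG, or CTTCCGG on the other strand).
Mrps16, chr14:20393556-20393740, minus strand: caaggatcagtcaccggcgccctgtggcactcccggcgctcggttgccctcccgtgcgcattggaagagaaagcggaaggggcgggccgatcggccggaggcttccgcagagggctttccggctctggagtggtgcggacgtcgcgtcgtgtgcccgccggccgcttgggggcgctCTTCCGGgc
Mrps6, chr16:92058086-92058269, plus strand: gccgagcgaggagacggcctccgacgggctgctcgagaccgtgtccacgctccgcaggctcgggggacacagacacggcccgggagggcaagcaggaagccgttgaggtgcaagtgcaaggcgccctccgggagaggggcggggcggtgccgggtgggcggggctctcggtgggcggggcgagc
Mrpl12, chr11:120484387-120484612, plus strand: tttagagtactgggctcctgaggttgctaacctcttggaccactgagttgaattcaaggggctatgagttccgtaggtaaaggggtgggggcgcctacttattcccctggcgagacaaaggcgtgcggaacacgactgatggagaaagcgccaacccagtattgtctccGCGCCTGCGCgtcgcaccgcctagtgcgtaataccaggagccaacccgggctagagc
Mrpl17, chr7:105811100-105811337, minus strand: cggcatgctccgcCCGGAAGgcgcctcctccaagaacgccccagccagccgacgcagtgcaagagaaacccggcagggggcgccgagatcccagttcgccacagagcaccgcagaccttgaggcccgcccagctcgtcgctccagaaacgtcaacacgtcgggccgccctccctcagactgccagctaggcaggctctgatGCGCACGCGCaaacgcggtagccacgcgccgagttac
In the stretches shown, Mrps16, at 301 TPM, held 1 ETS core, read on the other strand, and Mrps6, at 292 TPM, held none of these letters, whereas Mrpl17, at 24.7 TPM, held both and Mrpl12, at 272 TPM, held Nrf1 alone. A match is a string of letters and not a measured binding site.

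Over the 69 promoters, searched on both strands, with matches allowed to overlap and each promoter counted once per motif, 25 (36.2%) held the ETS core, against 12.4% of all 16469 promoters in the table and 20.6% of the 8543 promoters of genes at 1 TPM or more in every library. In cytosolic ribosomal protein genes the ETS core was in 24 of 60 (40.0%). The Nrf1 letters were in 14 of the 69 (20.3%), against 9.24% of all promoters and 15.0% of those of detected genes, and in 6 of the 60 cytosolic ribosomal protein genes (10%). The Yy1 letters (AAGATGGCG) were in 8 of the 69 (11.6%), against 2.04% and 3.64%, and in 3 of the 60 cytosolic ones (5.00%). At least 1 of these 3 motifs was in 41 of the 69 (59.4%), against 21.2% of all promoters and 34.8% of those of detected genes. Other promoter elements were searched in the same way. The Sp1 box GGGCGG was in 49.3% of the member promoters, against 48.3% of all and 67.4% of those of detected genes, and the E-box CACGTG, read by Myc, in 7.25%, against 8.11% and 10.6%. The CCAAT box was in 39.1%, against 38.7% and 39.8%, and the TATA box TATAAA in 5.80%, against 12.8% and 6.19%. A start made of C followed by 4 pyrimidines, the signature of cytosolic ribosomal protein genes, was at the RefSeq start of 0 of the 69, of 12 of 60 cytosolic ribosomal protein genes (20.0%) and of 2.20% of all promoters. These shares are descriptions of letters, and no test of them was made.

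The 8 members with the Yy1 letters are shown as windows of 30 bases, because in 6 of them the letters lay just downstream of the RefSeq start, on the strand of the gene.
Mrpl36, chr13:73330969-73330998, plus strand: gtgaccttaCGCCATCTTtcttcctggcgg
Mrps27, chr13:99344791-99344820, plus strand: gtgcgctccAAGATGGCGgctcccatggtg
Mrps24, chr11:5707652-5707681, minus strand: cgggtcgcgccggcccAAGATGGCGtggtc
Mrpl37, chr4:107066820-107066849, minus strand: gcacgggcaAAGATGGCGgcgtccaggtag
Mrps11, chr7:78783014-78783043, plus strand: tacgggcgcCGCCATCTTtctgtcttccca
Mrpl42, chr10:95501902-95501931, minus strand: gattgaagcAAGATGGCGagcgcgcggtga
Mrps18a, chr17:46111006-46111035, plus strand: gtgcgttccAAGATGGCGgccctcagggct
Mrpl35, chr6:71823741-71823770, minus strand: gcaggctgcAAGATGGCGgcttccatcttc
Capitals mark the Yy1 letters, which are read on the opposite strand in Mrpl36 and Mrps11. Counted along the gene from the RefSeq start, the match began at base 15 in Mrps27, 37 in Mrps24, 27 in Mrpl37, 28 in Mrpl42, 12 in Mrps18a and 24 in Mrpl35, and upstream of the start at -31 in Mrpl36 and -108 in Mrps11. The 8 genes covered a range of levels, from 173 ± 7.65 TPM for Mrpl36 and 112 ± 10.5 for Mrps27 to 40.0 ± 2.48 for Mrps18a and 29.3 ± 1.51 for Mrpl35 (SD, n = 4 each). Of the other matches in member promoters, 27 of 30 ETS matches and 15 of 17 Nrf1 matches were centred within 100 bases of the RefSeq start. The windows searched run only from 250 bases before to 50 bases after that start, and positions over all promoters were not computed. Whether these positions, those of the Yy1 letters included, are particular to the members was therefore not tested.

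Nearly the whole family was transcribed. Of the 78 genes, 77 were at 1 TPM or more in every library, the exception being Mrpl53, a level reached by 48.9% of 21764 protein-coding genes. At 10 TPM or more in every library were 75, against 37.3% of protein-coding genes, and at 10 CPM or more, where CPM is the count scaled by the library total without division by length, were 74, against 38.8%. At 100 TPM or more in every library were 24 members, against 8.84% of protein-coding genes. The median member stood at 66.6 TPM, with quartiles at 30.1 and 114.8 TPM, and 57 members lay above the level of 75% of protein-coding genes. The median of the 10640 protein-coding genes at 1 TPM or more was 32.5 TPM. Members lay on 17 chromosomes, with 11 on chromosome 11, 8 on chromosome 17 and 7 on chromosome 6.

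Together the 78 genes took 0.373%, 0.350%, 0.369% and 0.372% of counts in replicates 1 to 4. Replicate 2 was the lowest and the other 3 lay close together, for a mean of 0.366 ± 0.0106% (SD, n = 4). The 80 genes of the cytosolic ribosome, which translates all other messenger RNAs, took 5.03%, 4.61%, 5.27% and 5.13% of counts and had a median of 956 TPM. The 93 nuclear genes picked by symbol for the respiratory chain and ATP synthase took 1.11%, 1.03%, 1.10% and 1.11% and had a median of 137 TPM. The symbols used also take in assembly factors of the chain, the Ndufaf genes. In both of these families replicate 2 was again the lowest. The 13 protein genes of mitochondrial DNA, the templates that the mitochondrial ribosome reads, went the other way: they took 0.499%, 0.727%, 0.654% and 0.559% of counts, with replicate 2 the highest. Only 8 of these 13 genes were at 1 TPM or more in every library, and the median of the 13 was 21.2 TPM. Their share of counts therefore rests on a part of these genes.

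**Figure D1:**
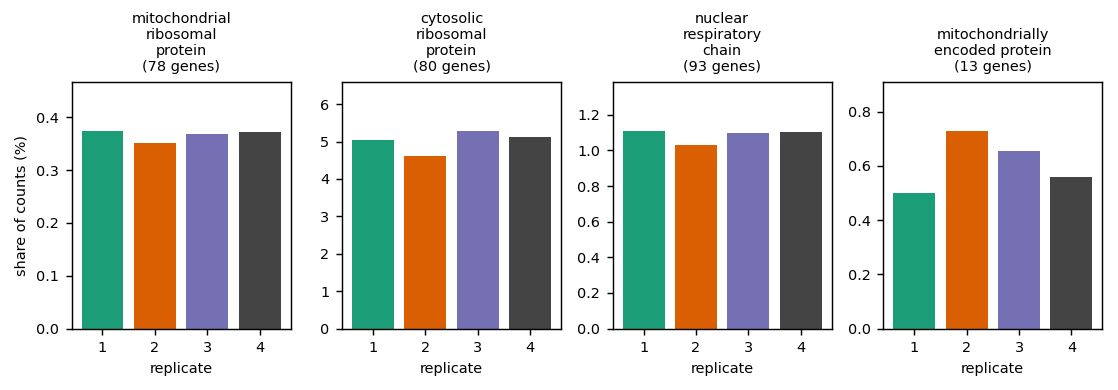
Share of all gene counts, in percent, taken by 4 gene families in each of the 4 libraries, with 1 bar per library and each panel on its own axis from 0. Mitochondrial ribosomal protein genes took 0.350% in replicate 2 and 0.369% to 0.373% in the others, while the mitochondrially encoded genes were highest in replicate 2, at 0.727%.

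The 51 proteins of the large subunit had a median of 72.3 TPM and a summed level of 4427 ± 123 TPM. The 26 proteins of the small subunit had a median of 60.3 TPM and a summed level of 2171 ± 75 TPM (SD, n = 4 each). Subunits were assigned by where the protein sits, since Mrps30 and Mrps18a carry small subunit symbols but belong to the large subunit. The median log2 level of large subunit genes was above that of small subunit genes by 0.24 ± 0.10 (SD, n = 4), in 4 of 4 libraries, and the difference was -0.065 with CPM, so its direction depended on the length correction. The 46 members with a bacterial counterpart had a median of 70.4 TPM and the 31 specific to mitochondria 64.5 TPM. Mrps18a and Mrps18b, although they descend from a bacterial ribosomal protein, were classed among the 31. The difference between the 2 classes in median log2 level was 0.12 ± 0.09 and was at 0.00 in replicate 2. By TPM on merged exon lengths, the order of the 2 classes differed between subunits. Medians were 77.6 TPM for the 16 small subunit genes with a bacterial counterpart and 36.9 TPM for the 10 without, and 68.5 TPM for the 30 large subunit genes with one and 81.5 TPM for the 21 without. By CPM the small subunit medians were 47.2 and 39.0 and the large subunit medians 44.2 and 40.0. With the length of the main transcript in place of the merged exons, they were 85.3 and 47.8 TPM and 88.4 and 72.0 TPM. By both of these measures, genes with a bacterial counterpart had the higher median in each subunit, so the differing order depended on merged exon length.

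In the large subunit the highest gene was Mrpl12, the protein of the stalk that catches translation factors, which lies on chr11:120484613-120489065 on the plus strand. It had 295, 240, 278 and 275 TPM in replicates 1 to 4, with replicate 2 the lowest, a mean of 272 ± 22.8 TPM, and by CPM it was the first of all members at 123 ± 11.3. Mrpl10, which anchors Mrpl12 to the stalk base, had 179, 156, 171 and 175 TPM, again lowest in replicate 2. Mrpl12 was above Mrpl10 in 4 of 4 libraries, by a log2 difference of 0.67 ± 0.04. In bacteria the stalk carries several copies of the Mrpl12 counterpart for each base protein.

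Next to Mrpl12 came Mrpl34 at 223 ± 11.0 TPM and Mrpl18, a protein of the central protuberance, at 220 ± 7.04 TPM. Mrpl28 followed at 206 ± 15.1, Mrpl36 at 173 ± 7.65 TPM and Mrpl45 at 155 ± 17.8 TPM. Mrpl45 lines the exit of the tunnel and ties the ribosome to the inner membrane, and it had 144, 171, 136 and 169 TPM in replicates 1 to 4, a spread in which replicates 2 and 4 were above the other two. Mrpl43, a protein found only in mitochondrial ribosomes, completed the 8 highest at 146 ± 6.20 TPM. Mrpl34 and Mrpl18, and likewise Mrpl36 and Mrpl10, differed by less than the spread between libraries.

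The 6 lowest large subunit genes were Mrpl13, Mrpl47, Mrpl33, Mrpl48, Mrpl23 and Mrpl53. Mrpl13 had 24.3 ± 2.00 TPM, Mrpl47 15.2 ± 1.15, Mrpl33 13.8 ± 1.16 and Mrpl48 9.67 ± 0.63 TPM (SD, n = 4 each). Mrpl23, whose bacterial counterpart sits at the tunnel exit, had 5.67, 5.00, 6.55 and 5.39 TPM in replicates 1 to 4, which was the lowest level of any member above 1 TPM. It was also the lowest of these by CPM, but not per length of its main transcript: divided by its main transcript of 692 bases in place of the 4883 exonic bases of the files, it stood at 27.6 ± 3.23 TPM and was number 66 of 78. Of its main transcript, 78.0% matched the pseudogene Mrpl23-ps1 at 97% identity or more, and the pseudogene itself was at 2.46 TPM. Fragments that fit both copies cannot be assigned, so the level of Mrpl23 is uncertain, as it is for Mrpl22, Mrpl27, Mrps10 and Mrps21, where 54.1% to 86.0% of the main transcript matched transcripts of other genes. For Mrpl33 and Mrpl13 the files give 7326 and 7936 exonic bases, while their main transcripts hold 478 and 1223 bases, and divided by the transcript lengths Mrpl33 stood at 147 ± 12.7 TPM and Mrpl13 at 109 ± 9.13 TPM. Values by main transcript length are on another scale, because the lengths of all genes were exchanged. Mrpl34, with 607 bases by both lengths, was at 223 TPM on the first scale and at 155 TPM on the second.

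Mrpl53, a mitochondria-specific protein of the large subunit, had 1, 0, 8 and 5 counts in replicates 1 to 4, or 0.0354, 0, 0.460 and 0.420 TPM. Its exons at chr6:83109040-83109939 span 790 bases, of which 695 are shared on the same strand with the annotated gene Gm42688. Fragments that fall on 2 genes are not assigned under the counting settings in the file headers. Gm42688 had 307, 146, 177 and 88 counts in the same libraries. The count of Mrpl53 therefore rests on 95 unshared bases and cannot be read as its level.

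The small subunit was led by Mrps16 and Mrps6. Mrps16, on chr14:20391231-20393555 on the minus strand, had 337, 258, 319 and 292 TPM in replicates 1 to 4, with replicate 2 the lowest, and a mean of 301 ± 34.4 TPM. Its place at the head of the family depended on length: the files give it 566 exonic bases, the fewest of any member, while its main transcript in the later GENCODE release M21 holds 2572 bases, and by CPM it was number 33 of 78 at 50.2 ± 6.21. Mrps6, on chr16:92058270-92112227 on the plus strand, had 291, 304, 289 and 286 TPM, a narrow range with replicate 2 the highest, and it was number 3 by CPM. The files count 15.1% of its exonic bases as shared with the overlapping transporter gene Slc5a3, which stood at 25.7 ± 3.66 TPM.

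Mrps7, a protein of the head of the small subunit, followed at 146 ± 9.41 TPM. Mrps21 was at 141 ± 7.47 TPM and Mrps23 at 138 ± 3.82 TPM, and these 3 differed by less than the spread between libraries. Mrps12, which helps to check the codon at the decoding centre, was at 123 ± 9.94 TPM. Mrps27, a protein with pentatricopeptide repeats, was at 112 ± 10.5 TPM and Mrps15 at 105 ± 5.35 TPM. Next, and named here for its overlap, came Mrps34 at 100 ± 6.64 TPM, with 37.0% of its exonic bases shared on the same strand with Nme3. Divided by its unshared bases alone, Mrps34 stood at 159 TPM, against 146 TPM for Mrps7 by that measure, so its place depended on the overlap. At the low end, Mrps22 had 25.5 ± 2.33 TPM and Mrps31 24.3 ± 1.94 TPM. Mrps33 was at 17.9 ± 1.55, Mrps25 at 17.2 ± 1.05, Mrps10 at 15.9 ± 0.84 and Mrps35 at 12.4 ± 0.79 TPM. Of these 6 only Mrps10 has a bacterial counterpart, and divided by its main transcript of 1018 bases in place of the 8079 exonic bases of the files, it stood at 87.5 ± 4.63 TPM.

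**Figure D2:**
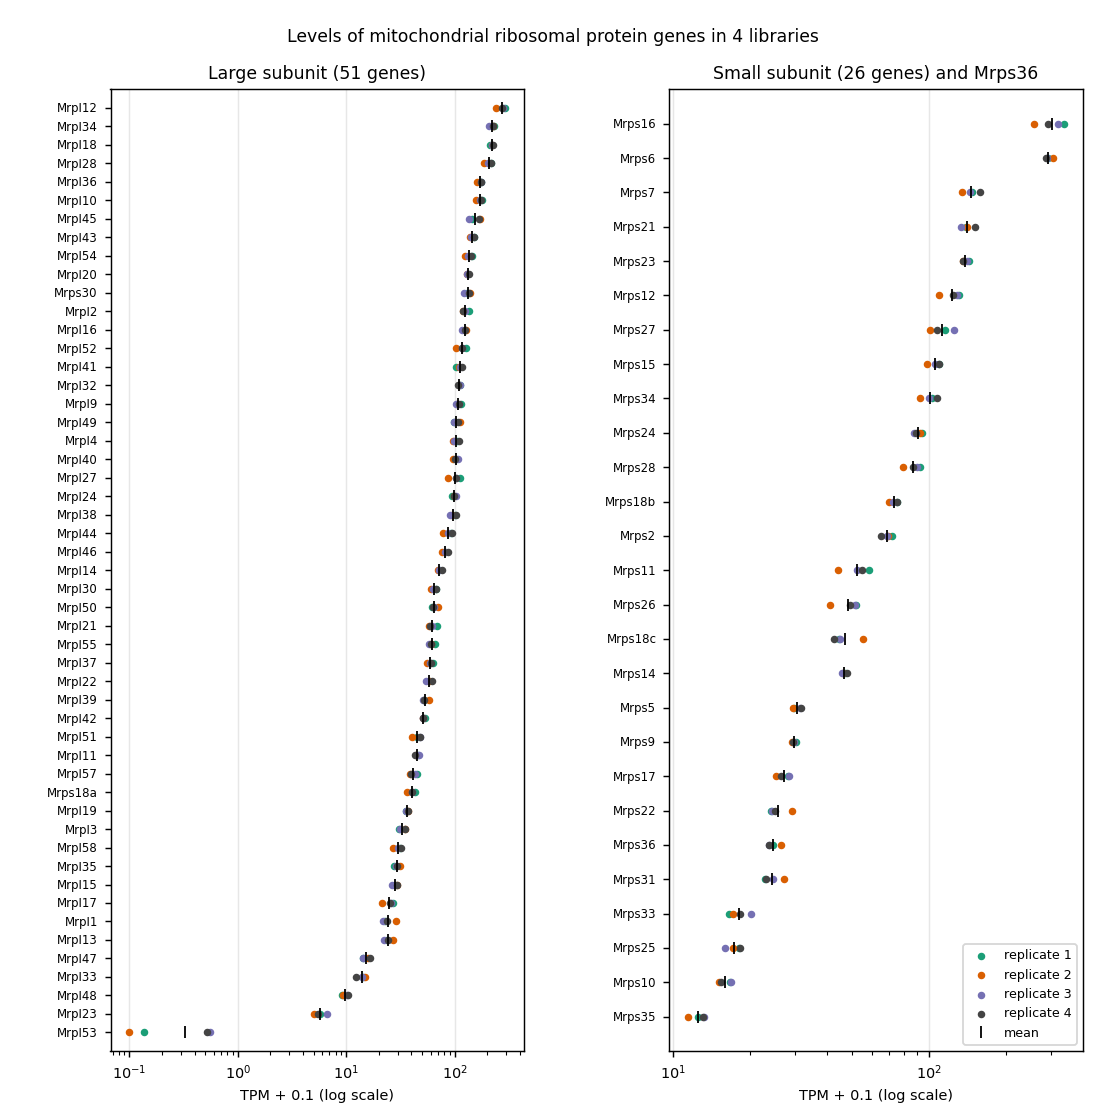
Level of each of the 78 genes in each library, as TPM + 0.1 on a log scale, with genes of the large subunit on the left and those of the small subunit and Mrps36 on the right, ordered by mean (black tick). Points of the 4 libraries lie close together for every gene above 1 TPM, from Mrps16 at a mean of 301 TPM to Mrpl23 at 5.65 TPM, and Mrpl53 stands apart below 1 TPM.

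Mrps36 has a ribosomal symbol but is known as a subunit of the 2-oxoglutarate dehydrogenase complex of the citric acid cycle. It had 24.5, 26.3, 23.7 and 23.5 TPM in replicates 1 to 4. Dlst, the core enzyme of that complex, had 263, 261, 255 and 258 TPM, far above it in every library. The log2 difference of Mrps36 minus Dlst was -3.40 ± 0.07.

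The bacterial protein that Mrps18a, Mrps18b and Mrps18c descend from has a single copy per ribosome, and the 3 mouse genes sit at different places of the mitochondrial ribosome, Mrps18a in the large subunit and the others in the small. Mrps18b had 74.6, 69.8, 72.0 and 74.6 TPM in replicates 1 to 4 and was the highest in all of them. Mrps18c had 44.4, 54.9, 45.0 and 42.6 TPM, with replicate 2 above the rest, and Mrps18a had 42.6, 36.7, 40.0 and 40.8 TPM, with replicate 2 below the rest. The log2 difference of Mrps18b minus Mrps18a was 0.86 ± 0.05, that of Mrps18b minus Mrps18c 0.64 ± 0.21 and that of Mrps18c minus Mrps18a 0.22 ± 0.25 (SD, n = 4 each). The last of these was 0.10 without replicate 2. Of the 1076 exonic bases of Mrps18c, 250 are shared on the same strand with the annotated gene Gm43511. Divided by its unshared bases alone, Mrps18c stood at 60.8 ± 7.25 TPM, so its differences from the other genes depended on this overlap too. With main transcript lengths, Mrps18b minus Mrps18a became -0.24 and Mrps18c minus Mrps18a -1.09, so the place of Mrps18a among the 3 rests on its merged exon length of 3690 bases against a main transcript of 884 bases.

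Partners of the ribosome were compared in the same way. Mrpl12 is known to bind Polrmt, the RNA polymerase of mitochondria, which had 53.1, 47.1, 48.1 and 49.1 TPM in replicates 1 to 4, below Mrpl12 in each, and Mrpl12 minus Polrmt was 2.46 ± 0.08 on the log2 scale. Mrps12 lies head to head with Sars2, the mitochondrial seryl-tRNA synthetase. Mrps12 had 131, 109, 128 and 124 TPM and Sars2 had 31.0, 25.2, 30.9 and 28.9 TPM, both lowest in replicate 2, so that Mrps12 minus Sars2 had the smallest spread of the 9 pairs, at 2.08 ± 0.03. Tufm, the elongation factor that delivers aminoacyl-tRNA, was above its exchange factor Tsfm by 1.56 ± 0.08, and Dap3 was above Ptcd3 by 0.26 ± 0.07, both of them small subunit proteins without the Mrp symbol. With main transcript lengths, Dap3 minus Ptcd3 was -0.70. In each of the 9 pairs the direction was the same in 4 of 4 libraries, and the exact two-sided sign-flip permutation test gave p = 0.13 (2 of 16 sign assignments), the smallest that 4 libraries allow, before and after Benjamini-Hochberg adjustment over the 9 pairs. None of the pairs could therefore pass a threshold of 0.05. Sizes depended on length: with CPM, Mrpl12 minus Polrmt was 0.85, Mrps12 minus Sars2 0.41 and Mrps18b minus Mrps18a 0.04 ± 0.05 (SD, n = 4, exact p = 0.25), and with main transcript lengths Tufm minus Tsfm was 0.63.

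Across the 78 genes, TPM and merged exon length had a Spearman correlation of -0.70, while CPM and length had 0.20. Length is the divisor in TPM, so the points share it, and the values are a description. In 18 members the merged exon length was at least 2 times that of the main transcript, and in 7 at least 4 times. Divided by main transcript length, capped at the merged exon length, TPM kept a Spearman correlation of 0.76 with the TPM used here, and 6 of the 10 highest members were the same. The highest and the lowest member above 1 TPM, Mrps16 and Mrpl23, differed 53.3-fold in TPM, and by CPM the highest and lowest of these 77 genes differed 15.1-fold.

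**Figure D3:**
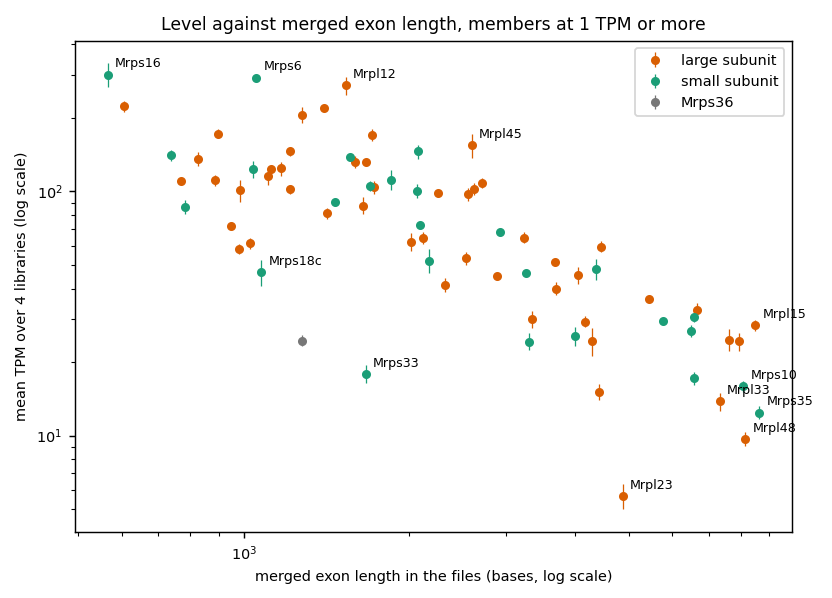
Mean TPM of the 77 members at 1 TPM or more (log scale, bars 1 SD over 4 libraries) against the merged exon length in the files in bases (log scale), coloured by subunit. Short genes such as Mrps16, with 566 bases, lie at the upper left and long ones such as Mrps35, with 8631 bases, at the lower right.

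Levels changed little between libraries. Among the 77 members at 1 TPM or more, the median coefficient of variation of TPM was 5.85%, against 7.82% for 10640 protein-coding genes at that level and 7.38% for the 8814 with a mean between 5 TPM and that of the highest member. In edgeR's quasi-likelihood fit, in which the dispersion of a gene was tested against that of genes of its abundance, 0 of 77 members had a Benjamini-Hochberg adjusted p under 0.05. That call was made for 1 of 13625 genes tested, or 0.00734%, and the gene was Xist. At an unadjusted p under 0.05 there were likewise 0 members, against 4.70% of all genes tested, and by DESeq2's dispersion outliers and limma's residual variances 0 members were called, against 0.273% and 0.00734% of all genes. With no filter on low counts 0 members and 0.299% of all genes were called in the edgeR fit, and without replicates 1, 2, 3 and 4 in turn 0 members and 0.0147%, 0.0928%, 0.00735% and 0.00717% of all genes. The smallest adjusted p of a member in the edgeR fit was 0.957. With 4 libraries this test called few genes: Pdf, a gene outside the family at 0.428 to 2.34 TPM, also had an adjusted p of 0.957. Eif2s3y, at 10 to 4285 counts, was not among the genes tested. A count of 0 members called thus does not show that their levels were equal between libraries. The median log2 ratio of dispersion to its prior was -0.48 for the members and -0.19 for all genes tested.

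The 6 members of largest coefficient of variation, among those at 5 TPM or more, were Mrpl1, Mrps18c, Mrpl23, Mrps11, Mrpl45 and Mrps16. Mrpl1, a mobile arm of the large subunit next to the exit site in bacteria, had 22.7, 29.0, 22.0 and 23.8 TPM, highest in replicate 2, and a coefficient of 13%. That of Mrps18c was 11.9%, also with replicate 2 the highest. Mrps11, a protein of the platform of the small subunit, had 58.1, 43.9, 52.2 and 54.4 TPM, lowest in replicate 2, and a coefficient of 11.5%. The coefficient was 11.7% for Mrpl23, 11.5% for Mrpl45 and 11.4% for Mrps16. The steadiest were Mrps9, with 30.0, 29.1, 29.4 and 29.4 TPM and a coefficient of 1.33%, Mrpl32 with 1.83%, Mrpl42 with 1.92% and Mrps14 with 2.06%.

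Replicate 2 was the lowest library in 48 of these 77 members (62.3%), after scaling by TMM (edgeR's trimmed mean normalization), against 35.2% of all genes tested. The median member deviated from its own mean by -0.09 on the log2 scale in replicate 2, against 0.00 for all genes tested, and by 0.04, 0.03 and 0.03 in replicates 1, 3 and 4. Base composition moved with this deviation. The Pearson correlation of the deviation in replicate 2 with the GC content of the main transcript was -0.42 across the 77 members and -0.39 across 11978 genes tested, and in replicate 1 it was 0.43 and 0.25. These are correlations across genes of the same libraries, which are not independent, and the part of base composition in the result was not tested.

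**Figure D4:**
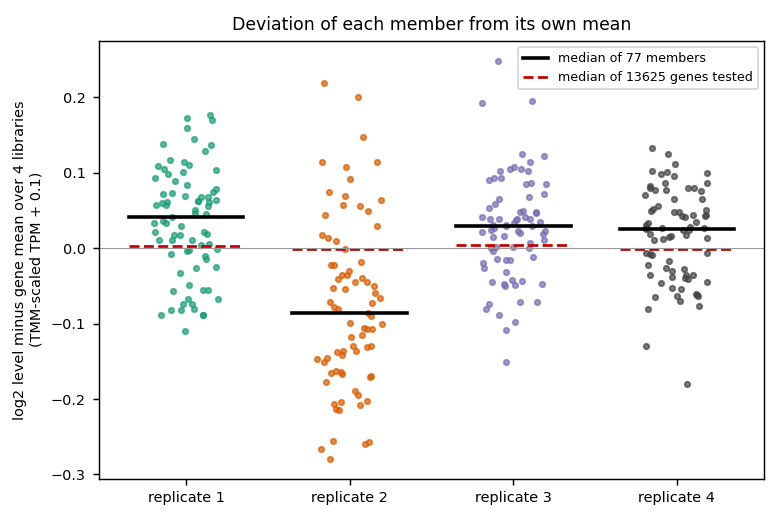
Log2 level of each of 77 members minus its mean over 4 libraries (TMM-scaled TPM + 0.1), with the median of the members (black line) and of all 13625 genes tested (red dashed line) in each library. In replicate 2 the member median was -0.09 while that of all genes was 0.00.

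Many members share their start region with a gene on the other strand. A protein-coding gene on the other strand began within 1000 bases of the start of 31 of the 78 members (39.7%), against 10.6% of 21764 protein-coding genes and 17.5% of the 10640 at 1 TPM or more. In 18 of the 31 the genes lay head to head without overlapping, and the median distance between starts was 137 bases. By TPM on merged exon lengths, the member was higher than its partner in all 4 libraries in 20 of 31, lower in all 4 in 10, and mixed in 1. The same share over other protein-coding genes was not computed. The median member was at 66.6 TPM, against 32.5 TPM for protein-coding genes at 1 TPM or more. These counts and the differences below depend on length: Mrps12 minus Sars2 was 2.08 by TPM and 0.41 by CPM, and the other pairs named below were not compared by CPM. Mrpl46 and Mrps11 are each other's partner, so their pair is counted in both directions. Counting was reverse-stranded per the file headers, so fragments of the partners could be told apart by strand.

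The largest differences were those of Mrpl9, at 108 ± 4.92 TPM, with Oaz3, the testis form of antizyme, which had 0.0512 TPM in replicate 2 and 0 in the others, and of Mrps30, at 132 ± 7.70 TPM, with B430218F22Rik at 0.163 ± 0.0723 TPM. Mrpl10 stood above Lrrc46 at 1.06 ± 0.32 TPM, a log2 difference of 7.25 ± 0.49, and Mrpl44 above Wdfy1 at 4.09 ± 0.76 TPM, a difference of 4.40 ± 0.35. In the opposite direction, Mrpl49 at 104 ± 6.18 TPM lay beside Fau, which encodes a cytosolic ribosomal protein fused to a ubiquitin-like part, at 1637 TPM, and the log2 difference of Mrpl49 minus Fau was -3.97. The most even pairs were Mrps27 with Ptcd2, at 112 and 102 TPM and a log2 difference of 0.13, Mrpl57 with the kinetochore gene Ska3, at 41.6 and 48.0 TPM and -0.21, and Mrps18b with Ppp1r10, at 72.7 and 97.8 TPM and -0.43. Mrpl46 and Mrps11, of the large and the small subunit, start beside each other on chromosome 7 and had 81.5 and 52.2 TPM, a log2 difference of 0.65. The pair of Mrpl46 and Mrps11 was named after its values were seen.

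**Figure D5:**
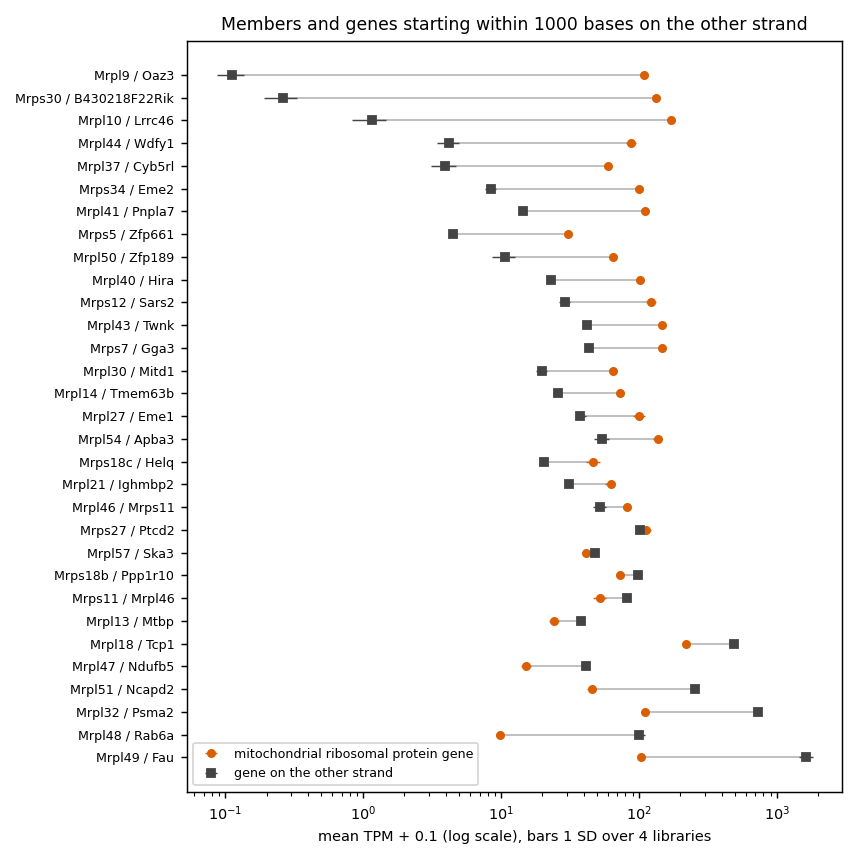
Mean TPM + 0.1 (log scale, bars 1 SD over 4 libraries) of the 31 members with a protein-coding gene starting within 1000 bases on the other strand (circles) and of that gene (squares), ordered by the difference. The member is to the right of its partner in the upper rows, down to Mrps27 with Ptcd2, and to the left below, down to Mrpl49 with Fau.

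Other genes of mitochondrial translation were read from 6 lists, which, like the members, were chosen with earlier results of these data known. Of the 83 genes of these lists tested in the edgeR fit, 0 had an adjusted p under 0.05, and 3, namely Pdf, Mtg1 and Yy1, had an unadjusted p under 0.05, against the 4.70% of all genes given above. Of subunits without the Mrp symbol, 5 were present under their listed symbols, Chchd1 at 218 ± 12.7, Aurkaip1 at 142 ± 9.02, Gadd45gip1 at 97.8 ± 3.76, Dap3 at 55.3 ± 1.66 and Ptcd3 at 46.1 ± 3.04 TPM, with a median of 97.8 TPM. They lay within the range of the members.

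The 14 translation factors had a lower median, at 18.04 TPM. Levels of all the lists are TPM on merged exon lengths, and their medians were not compared by CPM or main transcript length. The order of the lists may therefore depend on length, as orders among the members did. Tufm was the highest at 164 ± 8.88 TPM, followed by Gfm1, the factor that moves the ribosome along, at 67.1 ± 3.03 and Oxa1l, which inserts the new proteins into the inner membrane, at 63.2 ± 1.27 TPM. The lowest were Guf1 at 8.55 ± 0.79 and Pdf, the enzyme that removes the formyl group, at 1.19 TPM, with 0.673, 2.34, 1.33 and 0.428 TPM in replicates 1 to 4. The 26 factors of assembly and ribosomal RNA modification had a median of 23.8 TPM. Rbfa, a small subunit assembly factor, stood at 132 ± 4.93, Grsf1, an RNA granule protein, at 93.6 ± 8.41 and Eral1, the chaperone of small subunit RNA, at 61.1 ± 2.73 TPM, while Ybey was at 5.87 ± 0.77 and Gtpbp10 at 5.08 ± 0.39 TPM.

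The list for transcription and handling of mitochondrial RNA also holds genes that copy mitochondrial DNA, such as Polg and Polg2. It gave a median of 43.1 TPM over 16 of 17 listed genes found. The list was led by Hsd17b10, a subunit of mitochondrial RNase P, at 131 ± 9.48, the tRNA-processing enzyme Elac2 at 91.4 ± 6.45 and the DNA polymerase Polg at 68.1 ± 2.87 TPM. Its lowest were Polg2 at 7.52 ± 0.39 and Mterf1a at 2.46 ± 0.47 TPM. The 12 genes of protein import, through which every member's product must pass, had a median of 112 TPM, with Hspa9, the chaperone that pulls proteins into the matrix, at 619 ± 34.7, Tomm22 at 317 ± 14.4 and Tomm70a at 210 ± 13.7 TPM, and Mipep at 37.1 ± 0.47 and Timm17a at 32.1 ± 0.74 TPM at the low end. Among 11 regulators of nuclear genes for mitochondria, Myc was at 477 ± 15.6, Yy1 at 144 ± 24.6 and Pprc1, a coactivator related to PGC-1, at 107 ± 4.74 TPM. Of the PGC-1 coactivators themselves, Ppargc1b was at 4.92 ± 0.27 TPM and Ppargc1a had 0 counts in every library, where 3 counts, the limit that a count of 0 allows, were worth 0.0247 to 0.0583 CPM. Yy1 was highest in replicate 2, at 178 TPM against 122 to 147 TPM in the others.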

How the data were processed

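The authors deposited raw fragment counts per gene, per the file headers with featureCounts 1.4.6-p4 and GENCODE M13 on the mm10 genome, from paired fragments with both ends mapped and reverse-stranded counting (setting 2). Fragments on more than 1 gene were not counted under these settings. The aligner's version is not given in the sources used here.

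From the counts and merged exon lengths, TPM was computed here. Symbols, gene types and main (APPRIS principal) transcripts came from GENCODE M21, which matched 50376 of 50600 identifiers. Transcripts were compared with BLAST+ 2.17.0, at 97% identity over 100 bases or more. Pairs were compared as log2(TPM + 0.1) within libraries, with an exact sign-flip permutation test. Variation between the 4 libraries was tested on counts with edgeR 4.0.16 in R 4.3.3 (TMM, filterByExpr, intercept only, robust prior), after a check on simulated data. DESeq2 1.42.0 and limma 3.58.1 were alternatives, with CPM, a pseudocount of 1, no filter and leaving out each replicate. Main transcript lengths and unshared exonic lengths were added after seeing the data. The members and lists were chosen with earlier results of these data known. Named for level were the 8 highest and 6 lowest members of each subunit, pair genes, members under 1 TPM and the 3 highest and 2 lowest of each list. Named for variation were the 6 highest and 4 lowest coefficients at 5 TPM or more, and for position the 5 largest and 3 smallest differences. No molecular identifiers are stated, so the limit of 3 counts covers counting error only. Other computations used Python 3.11.15 with scipy 1.17.1.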

Additional observations from a re-analysis of the deposited data

Results flagged for a closer look

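In 3 of 56 values examined, 1 library stood far from the other 3 by Dixon's test at its 95% critical value for 4 samples, which chance gives in about 1 of 20 groups. Mrpl36 was at 161 TPM in replicate 2, against 176 to 177 TPM in the others. Mrps22 was at 29.0 TPM in replicate 2, against 24.1 to 24.9 TPM in the others. Mrpl42 was at 52.9 TPM in replicate 1, against 50.9 to 51.0 TPM in the others.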

How the results depend on the processing

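Length was the choice that moved results most. The median log2 difference of large minus small subunit genes, 0.24, was -0.065 with CPM, 0.40 with subunits taken from the symbol, 0.12 with main transcript lengths and 0.20 to 0.27 without each replicate in turn. That of bacterial counterparts minus mitochondria-specific genes, 0.12, was 0.27 with main transcript lengths and 0.10 to 0.17 without each replicate. Among the pairs, main transcript lengths gave -0.24 for Mrps18b minus Mrps18a, -1.09 for Mrps18c minus Mrps18a and -0.70 for Dap3 minus Ptcd3, and CPM gave -1.55 for Mrps18c minus Mrps18a. The other pairs kept their direction on average under every alternative run, but with smaller sizes in some. Of the levels of 44 named members, 41 moved by more than 1 SD with main transcript lengths, 3 with unshared lengths and 0 with TMM scaling. Without any single replicate 0 moved, but leaving out 1 library cannot shift a mean by 1 SD, so that 0 was fixed in advance. Main transcript lengths were used for all genes, which rescaled every TPM. Mrpl34, with 607 bases by both lengths, went from 223 to 155 TPM and is among the 41. That count thus does not show how many members depended on their own length. The share taken by the members was 0.366% of counts and 0.662% of TPM. At 10 or more in every library were 75 members by TPM, 74 by CPM and 77 with main transcript lengths. With replicate 2 left out, 0 members were called variable, as under every other setting, and 1, Mrpl45, had an unadjusted p under 0.05. No paired analysis was possible because the series holds 1 group. The lowest count of a member above 1 TPM was 397. For Mrpl53, with 0 to 8 counts, 695 of 790 exonic bases are shared with another gene.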
